A study of Rattus norvegicus with 8 samples.

Results

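The chloride and bicarbonate secretion machinery of the intestinal epithelium was followed through 9 genes (Cftr, Slc12a2, Kcnq1, Kcne3, Kcnn4, Slc26a3, Slc4a2, Slc4a4 and Slc4a7), chosen by their symbols from a table of 52753 loci in rat small intestine. Each symbol named 1 locus, and all 9 loci passed the filter on low counts. The whole length of the small intestine was taken from Sprague Dawley rats at postnatal day 21 and rinsed of mucus and digesta, and its stranded mRNA was sequenced. The 4 CF libraries came from rats with cystic fibrosis and the 4 WT libraries from wild-type rats of the same strain and age. Neither the CF allele nor sex, litter or batch is named in the labels, and it is not stated that every library is a separate animal, so the p-values measure the spread between libraries. In whole tissue, fewer cells of a type and less RNA per cell cannot be told apart.

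Fluid secretion in the gut is driven by anions. Chloride enters the crypt cell across its basolateral membrane on the sodium-potassium-chloride cotransporter NKCC1 (Slc12a2) and leaves through the apical channel CFTR, which also passes bicarbonate, while basolateral potassium channels keep the cell negative so that chloride continues to leave. Bicarbonate is loaded by sodium-bicarbonate cotransporters, and anion exchangers on the apical and the basolateral face trade it for chloride.

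RefSeq promoter windows of build GRCr8, running from 250 bases before to 50 bases after a start site, were found for 6 of the 9 genes. Those of the apical channel and the apical exchanger are shown because both proteins act on the same membrane. Capitals mark the matches to 10 searched motifs other than the GC box.
Cftr: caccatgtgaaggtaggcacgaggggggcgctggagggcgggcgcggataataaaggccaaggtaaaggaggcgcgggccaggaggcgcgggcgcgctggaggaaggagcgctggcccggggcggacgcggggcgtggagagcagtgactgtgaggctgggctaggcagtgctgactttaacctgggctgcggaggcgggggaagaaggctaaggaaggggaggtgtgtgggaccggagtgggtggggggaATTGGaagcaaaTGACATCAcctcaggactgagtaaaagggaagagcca
Slc26a3: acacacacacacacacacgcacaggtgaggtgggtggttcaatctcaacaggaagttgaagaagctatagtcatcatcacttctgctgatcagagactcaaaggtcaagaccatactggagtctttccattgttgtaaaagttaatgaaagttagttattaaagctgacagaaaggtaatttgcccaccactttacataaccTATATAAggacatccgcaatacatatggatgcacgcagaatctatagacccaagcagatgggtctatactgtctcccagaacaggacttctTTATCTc
The Cftr window (GRCr8 chr4:47527379-47527678, plus strand) was 65.0% G and C, and the Slc26a3 window (GRCr8 chr6:53751165-53751464, plus strand) was 41.7%. In the Cftr window the capitals are ATTGG, the CCAAT box read on the other strand, starting at position 2, and TGACATCA, a variant of the cAMP response element, starting at position 14. On either strand the box was present in 37.5% of all 33469 windows and the variant in 4.34%. The GC box GGGCGG, present in 33.1% of windows, started at positions −215 and −131. In the Slc26a3 window the capitals are TATATAA, a variant of the TATA box present in 3.94% of windows, starting at position −48, and TTATCT, the GATA site AGATAA read on the other strand and present in 11.6%, starting at position 44. Neither window held the TATA box TATAAA (14.2% of windows), the CDX site TTTATG (12.7%) or the HNF4 site CAAAGTCCA (0.391%). Nor did either hold the cAMP response element TGACGTCA (1.83%) or its shorter form TGACG (21.2%). The 2 variants were added to the search after the windows had been read, and a match describes letters only.

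The CF libraries held 18621671 to 20890031 assigned fragments and the WT libraries 15255364 to 20812425. They are named by the table's numbers 0 to 3. No label says that a shared number pairs a CF with a WT library. Levels are given as CPM, fragments scaled to library depth multiplied by a TMM scaling factor for each library. These factors ran from 0.911 in CF library 1 to 1.080 in WT library 0, so CPM is not scaled by depth alone. Villus enterocyte markers were low in CF library 0, with a score (mean deviation of log2 CPM over 11 genes) of −1.12, against 0.11 to 0.57 in the other CF libraries and −0.17 to 0.50 in WT. They summed to 8519 to 27070.1 CPM in CF libraries, against 14521 to 25679 CPM in WT. Epithelial markers had higher CF means in 10 of 11 genes, with scores of −0.13 to 0.34 in CF and −0.20 to 0.092 in WT. Goblet cell markers had higher CF means in 9 of 10. Their scores did not overlap, at 0.25 to 0.60 in CF and −0.87 to −0.13 in WT. Crypt and proliferating cell markers had 6 higher and 6 lower CF means. Smooth muscle markers had 6 higher and 1 lower, with scores of 0.019 to 0.39 in CF and −0.54 to −0.0091 in WT. Enteric neuron and glia markers had 1 higher and 10 lower, and leukocyte markers 5 higher and 6 lower. Blood and endothelium markers had 9 lower of 9, with scores of −0.57 to −0.14 in CF and 0.21 to 0.58 in WT. Of 16 markers of colon, stomach and pancreas, 4 passed the filter, and Hoxb13 and Atp4b had no fragments in any library.

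None of the 9 secretion genes differed between CF and WT intestine beyond the spread between libraries. Cftr, Slc12a2 and Kcne3 had nearly equal means in both groups, and Slc4a7 had the widest gap. The CF and WT ranges overlapped in all 9 genes, and they were apart in 8.78% of the 16941 loci tested. By edgeR's quasi-likelihood test, adjusted over all loci at a threshold of 0.05, 0.165% of loci were called (0.136% higher and 0.0295% lower in CF), and none of the 9 genes was among them. DESeq2, which called 3.66% of loci, called none of them either, and none had an edgeR unadjusted p under 0.05, where 15.1% of loci did. At such shares a set of 9 genes can hold none, so these counts do not set the 9 apart from other loci. With 6 higher and 3 lower means in CF, the median log2 fold change of CF over WT (log2FC) was 0.045, against −0.0049 over all tested loci.

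**Figure D1:**
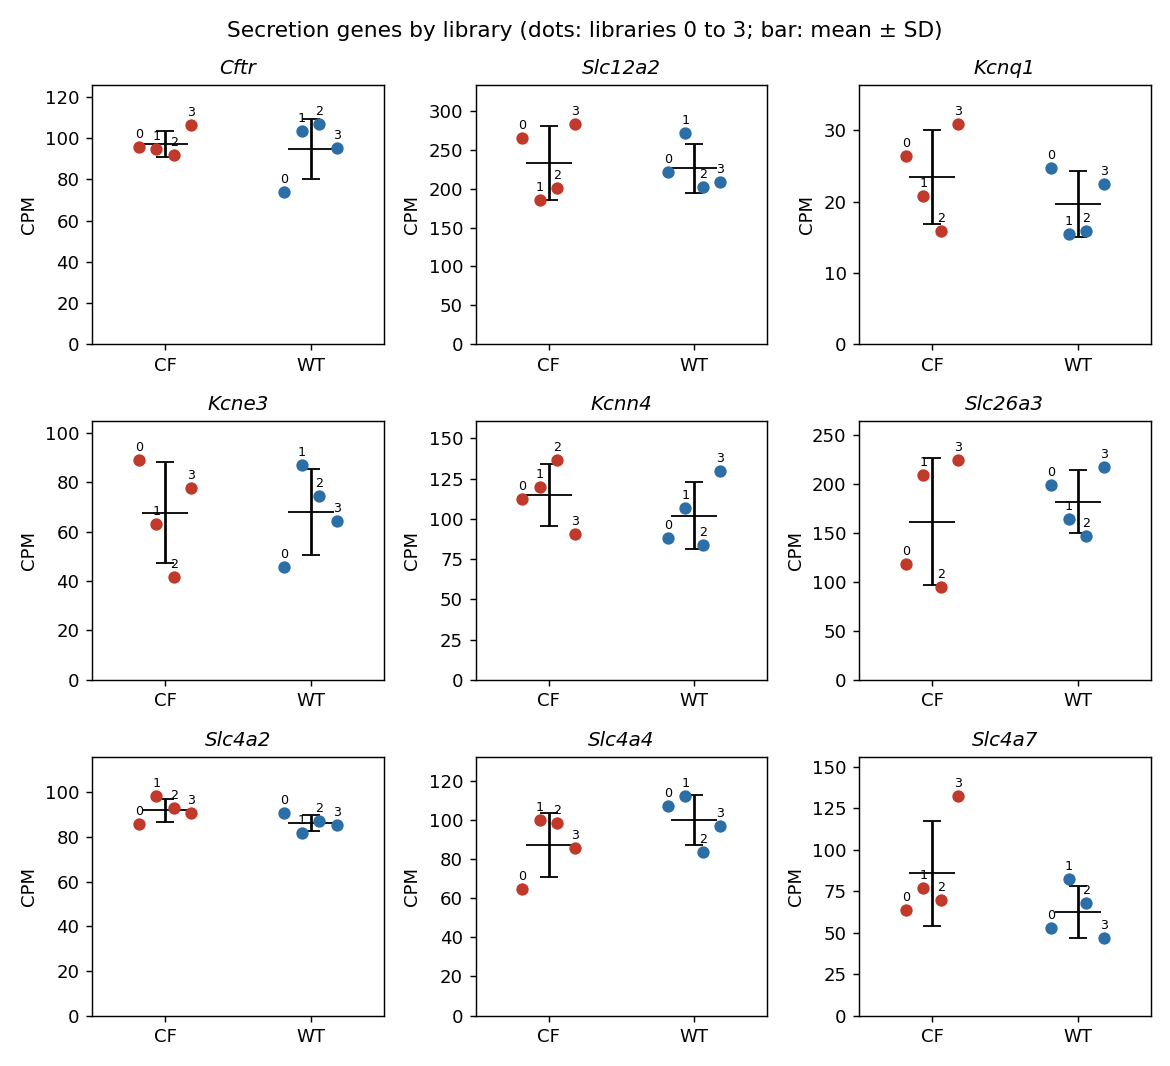
CPM (vertical axis, from 0) of each of the 9 secretion genes in the CF libraries (left) and the WT libraries (right), 1 dot per library, with the mean ± SD of 4 libraries. The groups overlap in every panel, with CF library 3 high for Slc4a7 at 132 CPM and CF library 2 low for Slc26a3 at 94.7 CPM.

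Cftr (XLOC_033538, chr4:42692836-42860679, as all spans here in Rnor_6.0) encodes the channel whose loss defines the disease. Its level was 95.7, 95.01, 92.0 and 107 CPM in CF libraries 0 to 3, against 74.0, 103, 107 and 95.2 CPM in WT libraries 0 to 3. The lowest library was WT library 0, and the other WT libraries lay near the CF ones. The log2FC was 0.037 (SE 0.12, 95% interval −0.24 to 0.31), so the interval reached from 0.849 to 1.24 times the WT level. A two-sided exact permutation test of log2 CPM gave p = 0.8286, where 4 against 4 libraries allow no p below 0.0286. Because the labels do not name the allele, a total over the locus does not check the genotype.

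Slc12a2 (XLOC_021716, chr18:52917124-52985261), the basolateral chloride loader, was at 265, 185, 201 and 283 CPM in CF libraries, against 222, 272, 203 and 209 CPM in WT. CF libraries 0 and 3 and WT library 1 were high, and CF library 1 was the lowest. The means of 234 ± 47.6 CPM in CF and 226 ± 31.6 CPM in WT (SD, n = 4 each) gave a log2FC of 0.045 (SE 0.16, 95% interval −0.31 to 0.40).

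Of the basolateral potassium channels, the cAMP-activated one joins the pore KCNQ1 to the subunit KCNE3, and the calcium-activated one is KCNN4. Kcnq1 (XLOC_001617, chr1:216293046-216630452) was at 26.3, 20.8, 15.8 and 30.8 CPM in CF, against 24.6, 15.5, 15.9 and 22.5 CPM in WT. CF library 3 was the highest, and WT library 1 the lowest. The log2FC was 0.26 (SE 0.22, 95% interval −0.24 to 0.76), 0.10 without CF library 3 and 0.41 without CF library 2. Kcne3 (XLOC_001143, chr1:165189900-165210594), whose product holds the channel open, was at 88.9, 62.9, 41.5 and 77.6 CPM in CF, against 45.6, 86.9, 74.5 and 64.4 CPM in WT. Each group had 1 low library, CF library 2 and WT library 0. The log2FC was −0.0029 (SE 0.25, 95% interval −0.57 to 0.56). Kcnn4 (XLOC_000546, chr1:81230612-81245996) was at 113, 119.9, 136 and 90.5 CPM in CF, against 88.2, 106, 83.9 and 129.8 CPM in WT. CF library 3, the highest for Kcnq1, was the lowest CF library for Kcnn4. The log2FC was 0.17 (SE 0.16, 95% interval −0.19 to 0.53), 0.079 without CF library 2 and 0.31 without WT library 3.

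**Figure D2:**
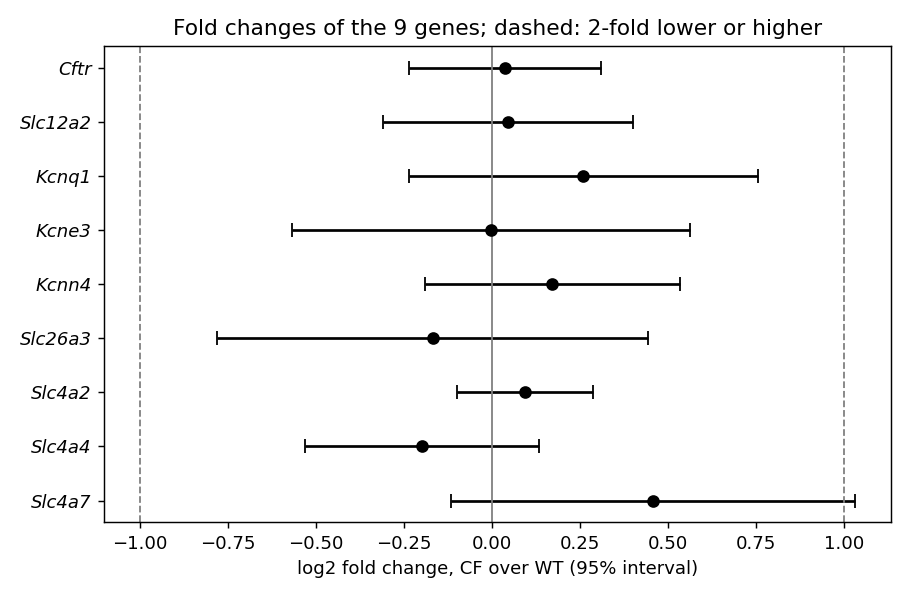
Log2 fold change of CF over WT (horizontal axis) for each gene, as a point with its 95% interval from the edgeR fit. Every interval includes 0, and that of Slc4a7 alone reaches past a 2-fold change, with an upper bound of 1.03.

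The anion exchanger genes Slc26a3 (apical, DRA) and Slc4a2 (basolateral, AE2) had the largest and the smallest within-group SD of log2 CPM of the 9. Slc26a3 (XLOC_040079, chr6:50724933-50766372) was at 118, 209, 94.7 and 224 CPM in CF, against 198, 164, 147 and 217 CPM in WT. CF libraries 0 and 2 lay below all WT libraries, and CF library 3 lay above them. The log2FC was −0.17 (SE 0.27, 95% interval −0.78 to 0.44), −0.043 without CF library 0 and 0.019 without CF library 2. Villus marker scores in these 2 libraries were −1.12 and 0.11, and their part in the result was not tested. Slc4a2 (XLOC_034461, chr4:7260502-7282666) was at 85.6, 98.2, 93.0 and 90.8 CPM in CF, against 90.5, 81.8, 87.3 and 85.2 CPM in WT. All 8 libraries lay close together, and 1.68% of tested loci had a within-group SD as low as its 0.072 log2 units, where Slc26a3 had 0.47. The log2FC was 0.092 (SE 0.087, 95% interval −0.10 to 0.29).

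The sodium-bicarbonate cotransporter genes had means on opposite sides of WT, neither past the test. Slc4a4 (XLOC_015163, chr14:20479323-20920286), which encodes NBCe1, was at 64.6, 99.8, 98.1 and 85.5 CPM in CF, against 107, 112, 83.3 and 97.0 CPM in WT. CF library 0 was the lowest of all, and the others overlapped. The log2FC was −0.20 (SE 0.15, 95% interval −0.53 to 0.13), and −0.079 without CF library 0. Slc4a7 (XLOC_016979, chr15:11832611-11912916), which encodes NBCn1, was at 63.9, 77.2, 69.6 and 132 CPM in CF, against 53.0, 82.4, 67.8 and 46.8 CPM in WT. CF library 3 stood above every other library, and the other CF libraries lay inside the WT range. The log2FC was 0.46 (SE 0.26, 95% interval −0.12 to 1.03) with an edgeR adjusted p of 0.435. Without CF library 3 it was 0.17 (adjusted p = 0.815).

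The intervals of the main fit describe each gene singly, under that fit's own scaling and no other. For 8 of the 9 genes the 95% interval lay inside a 2-fold change in either direction, and for 6 it lay inside a 1.5-fold change. The exceptions to the narrower bound were Slc4a7 (up to 2.04 times the WT level), Kcnq1 (up to 1.69 times) and Slc26a3 (down to 0.582 times). With libraries set to equal epithelial markers, the median of all loci moved to −0.24. The log2FC of Cftr, Slc12a2, Kcnn4 and Slc4a2 was then below 0 (−0.20 for Cftr). That left 2 higher means, those of Kcnq1 and Slc4a7. The values furthest from 0 were −0.45 for Slc4a4 and −0.44 for Slc26a3 (edgeR adjusted p = 0.182 and 0.259). None of the 9 genes was called.

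**Figure D3:**
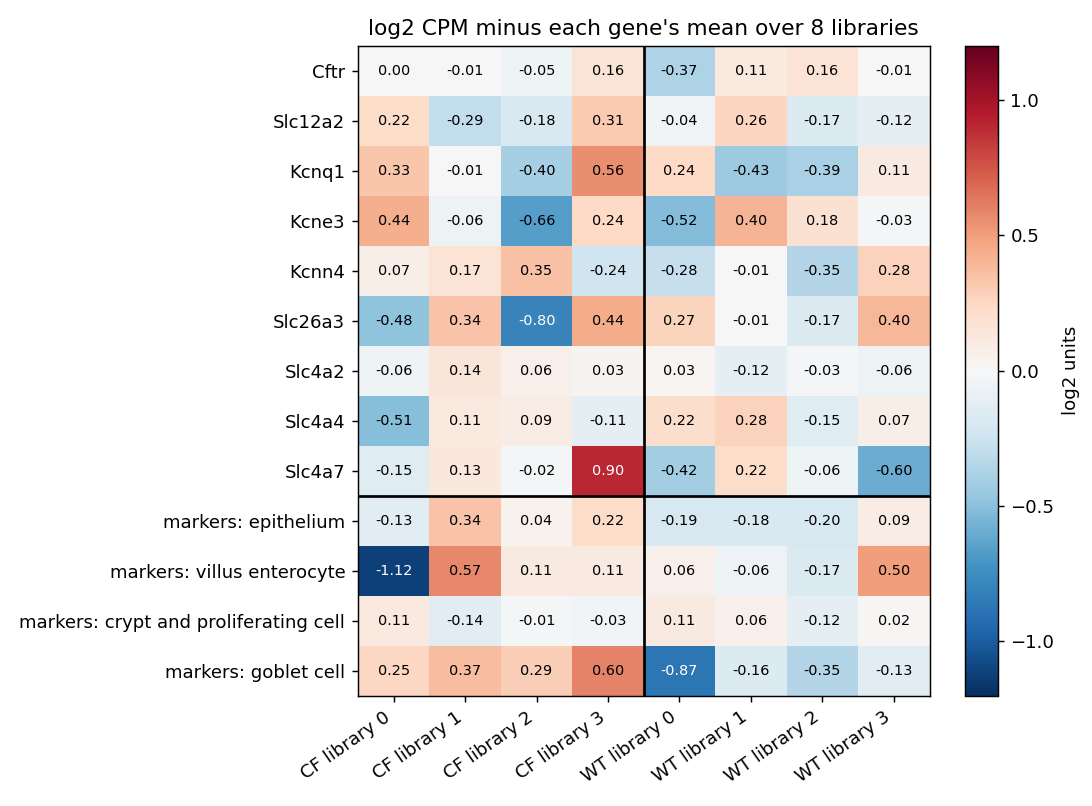
Log2 CPM of each gene less its average over 8 libraries (colour and number, log2 units), for the 9 genes and for marker scores, with CF libraries left and WT libraries right. CF library 3 is the highest library for Slc12a2, Kcnq1, Slc26a3 and Slc4a7 (0.90), but lies below average for Kcnn4 and Slc4a4. The mean of the 9 genes is 0.26 there and −0.18 in CF library 2, against −0.11 to 0.079 in WT libraries. Slc26a3 is at −0.80 in CF library 2.

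Levels of different genes were compared on the authors' FPKM, which divides by transcript length. Slc26a3 was highest over the 8 libraries, at 66.1 ± 19.4 FPKM (SD, n = 8). Kcnn4 at 41.3 ± 10.9 FPKM, Slc12a2 at 40.8 ± 6.42 FPKM and Kcne3 at 33.2 ± 9.30 FPKM followed. Slc4a4 had 19.99 ± 4.01 FPKM, Slc4a2 17.8 ± 3.24 FPKM, Cftr 11.5 ± 1.12 FPKM and Slc4a7 11.4 ± 4.01 FPKM. Kcnq1 was lowest, at 5.89 ± 1.73 FPKM. Of the neighbours in this order, Slc4a2 and Cftr alone had ranges of mean ± SD that did not meet. Slc4a7 was above Kcnq1 in 8 of 8 libraries, and Kcnn4 was above Slc12a2 in 4 of 8. The Cftr level was at or above that of 67.4% of tested loci, and the Slc26a3 level at or above that of 93.5%.

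**Figure D4:**
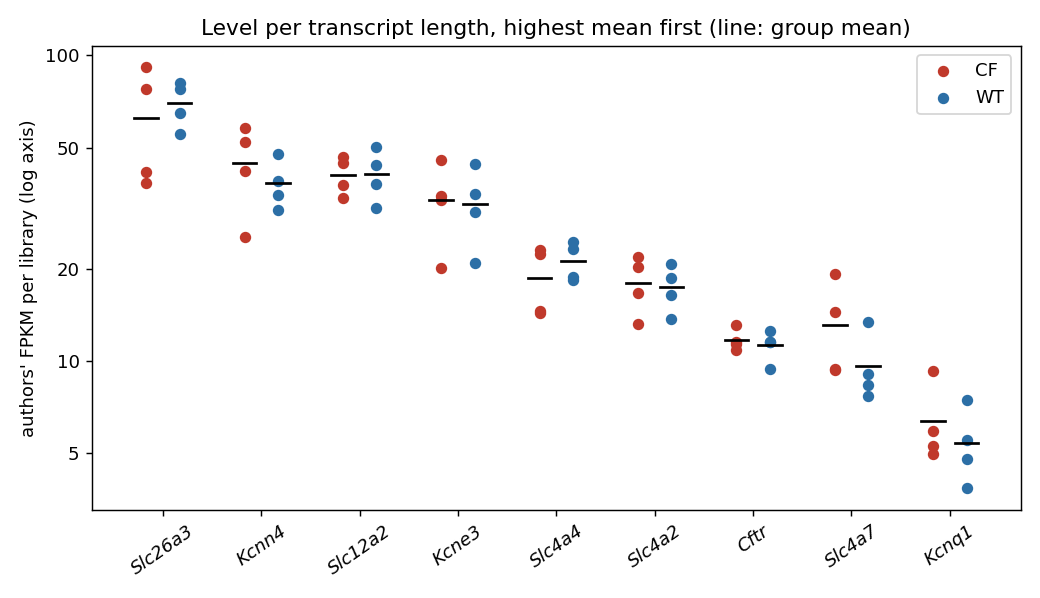
Authors' FPKM per library (vertical log axis) of the 9 genes, CF libraries left and WT libraries right of each position. Cftr lies between 9.42 and 13.2 FPKM in all 8 libraries, while Slc26a3 runs from 38.3 to 91.7 FPKM.

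FPKM and fragments did not order the libraries alike for every gene. The coefficient of variation of Slc4a2 was 5.70% in CF and 4.22% in WT by CPM, but 21.4% in CF and 17.4% in WT by FPKM. Kcnq1 was highest in CF library 3 by CPM and in CF library 0 by FPKM, at 9.31 FPKM. Cftr was highest in WT library 2 by CPM and in CF library 1 by FPKM.

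Ratios of 2 genes within a library need no scaling between libraries, and 4 were computed. Fragments of Slc26a3 per fragment of Cftr numbered 1.23, 2.20, 1.03 and 2.10 in CF, against 2.68, 1.59, 1.37 and 2.28 in WT. CF libraries 0 and 2 were the lowest, and the groups overlapped. The log2 difference (CF minus WT) was −0.30 (two-sided exact permutation p = 0.400, or 0.648 with Benjamini-Hochberg adjustment over the 4 ratios). It was −0.097 without CF library 2 and −0.46 without CF library 1, the extremes of leaving out 1 library. Slc12a2 per Cftr, chloride entry against exit, was 2.77, 1.95, 2.18 and 2.65 in CF, against 2.995, 2.63, 1.90 and 2.20 in WT. Both groups spanned nearly the same values, with a log2 difference of −0.017 (exact permutation p = 0.971, adjusted 0.971). Kcne3 per Kcnq1, subunit against pore, was 3.38, 3.02, 2.63 and 2.52 in CF, against 1.85, 5.62, 4.68 and 2.86 in WT. The CF values lay close together inside the wide WT range, with a log2 difference of −0.26 (exact permutation p = 0.486, adjusted 0.648). It was −0.024 without WT library 1 and −0.56 without WT library 0.

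The ratio of Slc4a4, bicarbonate entry, to Slc4a2, anion exchange, came nearest to separating the groups. It was 0.754, 1.02, 1.05 and 0.942 in CF, against 1.184, 1.37, 0.955 and 1.14 in WT. All CF values lay below 3 of the 4 WT values, and WT library 2 fell among them. The log2 difference was −0.30 (exact permutation p = 0.0857, adjusted 0.343), and by FPKM it was −0.26 (exact permutation p = 0.457).

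**Figure D5:**
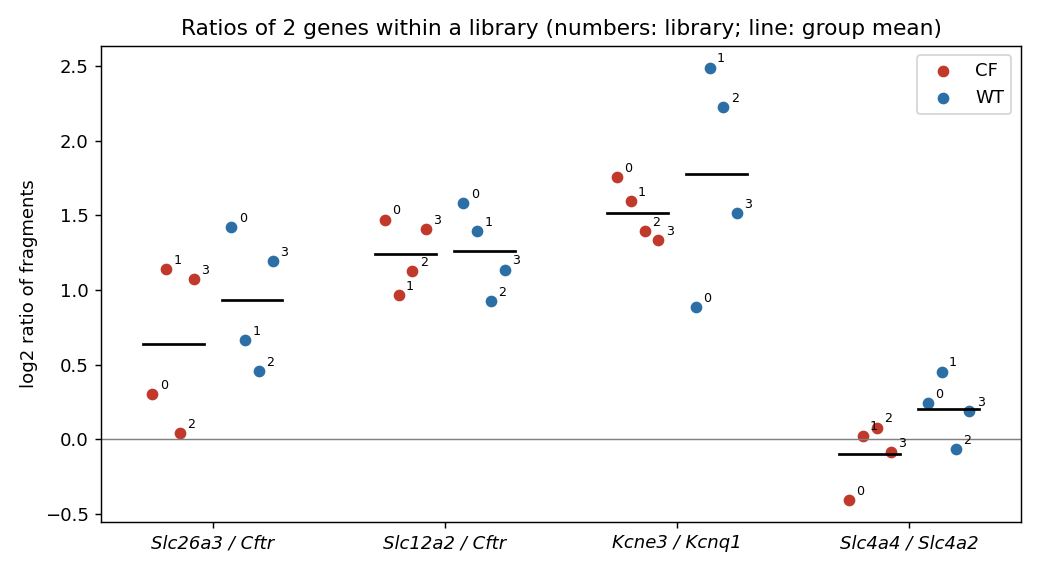
Log2 ratio of the fragments of 2 genes (vertical axis) in each CF library (left) and WT library (right). The groups overlap for all 4 ratios, with mean differences (CF minus WT) from −0.30 to −0.017.

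The wider secretion pathway was read from 6 lists of 122 genes, of which 97 were tested. Of these edgeR's test, which called 0.165% of all loci, called none. DESeq2, which called 3.66% of all loci, called 4, or 4.12%. At an unadjusted p of 0.05, 13.4% of the 97 passed, against 15.1% of all loci, and the groups were apart in 8.25%, against 8.78%. CF means were higher for 55 genes and lower for 42, with a median log2FC of 0.038.

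Other bicarbonate and anion exchangers had 4 higher and 5 lower CF means among 9 tested of 15 genes. Slc26a2, a sulfate transporter gene and the most abundant per length, had 29.8 FPKM in CF and 34.6 FPKM in WT. Slc4a1, the anion exchanger of red cells, had 0.728 ± 0.126 CPM in CF libraries and 1.80 ± 0.705 CPM in WT (log2FC −1.31, SE 0.32, adjusted p = 0.118 by edgeR and 0.0283 by DESeq2). Of 19 alternative fits, DESeq2 alone called Slc4a1. All 9 tested markers of blood and endothelium, a list that holds Slc4a1 itself, had lower CF means, at a summed 172 to 247 CPM in CF and 299 to 492 CPM in WT, and their part in the Slc4a1 value was not tested. Slc4a11 had 2.13 ± 0.653 CPM in CF libraries and 1.202 ± 0.233 CPM in WT, and Slc26a8 had 11.8 ± 0.701 CPM in CF libraries and 9.83 ± 0.981 CPM in WT (edgeR adjusted p = 0.231 and 0.353). The apical exchanger gene Slc26a6 shared its locus with Celsr3 and Tmem89 and has no value of its own.

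Other chloride channels and cotransporters had 10 higher and 6 lower CF means among 16 tested of 24 genes. Clic5, the most abundant per length, had 401 ± 161 CPM in CF libraries and 557 ± 96.4 CPM in WT (edgeR adjusted p = 0.477). Slc12a3 and Clcn3 had adjusted p-values of 0.318 and 0.523. Ano1, the calcium-activated chloride channel gene, named after its values were seen, was at 20.6, 22.8, 21.8 and 22.8 CPM in CF, against 24.8, 25.1, 19.5 and 19.5 CPM in WT. The WT libraries lay on both sides of the CF ones, with a log2FC of −0.011 (SE 0.12).

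Other epithelial potassium channels had 8 higher and 7 lower CF means among 15 tested of 19 genes. Kcnk1 was at 62.6, 30.1, 25.0 and 52.7 CPM in CF, against 17.2, 28.7, 27.8 and 24.7 CPM in WT. CF libraries 0 and 3 were high and the other CF libraries lay near the WT ones, with a log2FC of 0.79 (SE 0.30, edgeR adjusted p = 0.270). Kcnk2 had 1.81 ± 0.443 CPM in CF libraries and 2.93 ± 0.718 CPM in WT, and Kcnk6 had 1.26 ± 0.398 CPM in CF libraries and 0.790 ± 0.186 CPM in WT (edgeR adjusted p = 0.266 and 0.370). Kcnk5, the most abundant per length, had 14.1 FPKM in CF and 16.7 FPKM in WT.

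Scaffold, trafficking and quality control genes of CFTR had 15 higher and 5 lower CF means among 20 tested of 23, with a median log2FC of 0.063. Ezr, which links apical membrane proteins to actin, was at 606, 872, 716 and 1052 CPM in CF, against 599, 579, 503 and 621 CPM in WT. CF library 0 lay inside the WT range and the other CF libraries above it (log2FC 0.50, SE 0.17, edgeR adjusted p = 0.233). Stx3, a syntaxin of apical membrane fusion, was at 36.8, 44.4, 44.7 and 69.1 CPM in CF, against 35.2, 32.0, 32.8 and 36.6 CPM in WT. Every CF library lay above every WT one (log2FC 0.51, SE 0.17, edgeR adjusted p = 0.220). With no low-count filter the adjusted p was 0.0330 for Ezr and 0.0257 for Stx3, and none of the other 18 fits called either. Dab2, an endocytic adaptor, had 31.7 ± 5.69 CPM in CF libraries and 50.3 ± 16.5 CPM in WT (edgeR adjusted p = 0.224). The chaperone gene Hspa8, the most abundant per length, had a log2FC of 0.073.

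Kinases, cyclases and phosphodiesterases had 11 higher and 13 lower CF means among 24 tested of 26 genes. Sgk3, a kinase of the serum- and glucocorticoid-regulated family, was at 10.99, 10.3, 10.6 and 10.4 CPM in CF, against 19.2, 14.2, 12.5 and 16.5 CPM in WT. All CF libraries lay below all WT ones (log2FC −0.56, SE 0.14), with an adjusted p of 0.136 by edgeR and 0.0291 by DESeq2. DESeq2 was the 1 of 19 alternative fits that called Sgk3. Prkacb, a catalytic subunit of the cAMP-dependent kinase that opens CFTR, had 50.2 ± 2.17 CPM in CF libraries and 57.5 ± 3.26 CPM in WT, again without overlap (log2FC −0.20, SE 0.087, edgeR adjusted p = 0.322). Pde4a had an adjusted p of 0.353. Gnas, the stimulatory G protein gene and the most abundant per length, had 363 ± 26.5 CPM in CF libraries and 387 ± 13.9 CPM in WT.

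Secretagogue receptors included the gene with the smallest adjusted p of the 6 lists. P2ry2, the receptor for extracellular ATP and UTP, was at 5.64, 7.33, 6.54 and 7.58 CPM in CF, against 4.87, 2.81, 2.79 and 2.12 CPM in WT. The groups did not overlap, and the log2FC was 1.10 (SE 0.25) with an edgeR adjusted p of 0.09998. It was called in 3 of 19 alternative fits, with adjusted p-values from 0.00102 to 0.293. F2rl1, the protease-activated receptor PAR2 and the most abundant per length, was at 74.9, 93.4, 77.6 and 94.7 CPM in CF, against 70.2, 63.0, 62.0 and 65.8 CPM in WT. The groups were again apart (log2FC 0.38, SE 0.11), with an adjusted p of 0.155 by edgeR and 0.0413 by DESeq2. F2rl1 was called in 1 of 19 alternative fits, that of DESeq2. Chrm1, a muscarinic receptor gene, had 3.92 ± 1.19 CPM in CF libraries and 2.40 ± 0.125 CPM in WT (edgeR adjusted p = 0.227). In all, 7 of the 13 receptor genes tested had higher and 6 lower CF means.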

How the data were processed

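Small intestine mRNA from 4 CF and 4 WT libraries was measured as fragments per locus. The submitters' processing notes name STAR 2.3.1z, cutadapt, bcl2fastq, Cuffdiff and StringTie, with build Rnor_6.0, and their settings were not given in the sources used here. Estimated counts are unscaled fragments per locus, as deposited by the authors, per the file headers. A share of 5.99% was fractional, and values were rounded. FPKM comes from Cuffdiff as the authors deposited it, scaled by depth and length per the file headers. 2 further columns of values per library were not used.

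Loci passing filterByExpr (minimum count 10, minimum total 15), 16941 in all, were scaled by TMM and fitted with the robust quasi-likelihood model of edgeR, with Benjamini-Hochberg adjustment. SE is the absolute log2 fold change over the root of F. Log2 CPM has a prior count of 2. The procedure was tested on simulated data. The genes and lists were chosen with earlier results of these data known. From each other list the called genes, or failing these the 3 with the smallest p, and the most abundant per length were named. Spans are 1-based and can cover neighbouring genes. Library numbers in the table could not be tied to the numbered titles, so only the group of each library is used. Alternative fits used other scalings, filters, tools, FPKM, a library number block, unrounded counts, the sum over all loci of a symbol and 1 library left out. Versions were edgeR 4.0.16, limma 3.58.1 and DESeq2 1.42.0 under R 4.3.3, and scipy 1.17.1 and matplotlib 3.10.9 under Python 3.11.15.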

Additional observations from a re-analysis of the deposited data

How the results depend on the processing

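None of the 9 genes was called in any of 19 alternative fits, 1 of which (the sum over all loci of a symbol) could not differ because each symbol named 1 locus, where the lowest adjusted p was 0.182 for Slc4a4, and Kcnq1, Slc4a4 and Slc4a7 had the same sign in all 19. With equal epithelial markers the log2 fold change turned to −0.20 for Cftr, −0.18 for Slc12a2, −0.036 for Kcnn4 and −0.15 for Slc4a2, and the loci called split into 9 higher and 12 lower, in place of 23 and 5. Upper quartile scaling gave −0.0040 for Cftr. Kcne3 turned to 0.00079 with DESeq2 size factors, 0.0010 with DESeq2, 0.034 with no low-count filter, 0.026 on log2(FPKM + 1) and 0.026 on log2(FPKM + 0.1). Leaving out 1 library gave −0.064 to 0.097 for Cftr, −0.057 to 0.15 for Slc12a2, −0.16 to 0.17 for Kcne3, −0.37 to 0.019 for Slc26a3, 0.10 to 0.41 for Kcnq1, 0.079 to 0.31 for Kcnn4, 0.060 to 0.13 for Slc4a2, −0.28 to −0.079 for Slc4a4 and 0.17 to 0.62 for Slc4a7. For the ratios it gave −0.13 to 0.090 for Slc12a2 to Cftr, −0.46 to −0.097 for Slc26a3 to Cftr, −0.56 to −0.024 for Kcne3 to Kcnq1 and −0.39 to −0.20 for Slc4a4 to Slc4a2.

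Over all loci 28 were called, but 553 with no low-count filter and 619 with DESeq2. With 1 library left out 5 to 136 were called, with 136 lacking CF library 0, 77 lacking CF library 2, 5 lacking WT library 1 or 2 and 6 lacking WT library 3. With the table's number as a replicate block 11 were called, and none of the 9 genes was. Same-numbered libraries had correlations of 0.065, −0.11, 0.16 and −0.0083 between their deviations. The same-numbered WT library was the best match for CF libraries 0 and 2, and not for CF libraries 1 and 3. With 4 libraries per group these values cannot decide whether libraries were paired, which the labels do not state. The causes were not tested.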

Other observations

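Within 1 Mb of the Cftr span on chromosome 4, 4 other loci were tested. None was called by edgeR's test, which called 0.165% of all loci. The locus shared by Foxp2 and AC115440.1 had a log2 fold change of −0.37 and Rbmxl1b one of 0.17 (edgeR adjusted p = 0.505 and 0.678). Mdfic had 11.4 ± 1.63 CPM in CF libraries and 12.7 ± 1.22 CPM in WT (SD, n = 4 each). Cttnbp2, whose span starts 72224 bases beyond that of Cftr, had 1.77 ± 0.960 CPM in CF libraries and 3.47 ± 0.532 CPM in WT. Its groups overlapped, with a log2 fold change of −0.98 and an edgeR p of 0.0221, or 0.256 adjusted over all loci.

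Of 12121 loci ranked by the likeness of their log2 CPM to that of Cftr over the 8 libraries, Med21, C1galt1c1, Faslg, Nrtn and Akr1cl came first. Their Pearson correlations ran from 0.926 to 0.970 and their Spearman correlations from 0.857 to 0.952. The 8 points share library depth and tissue makeup, and these loci were picked as the highest of the ranking, so the values only describe it.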
